A study of Mus musculus with 8 samples.

Results

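The genes of the mitochondrial genome were followed through gastrocnemius RNA of mice that had received a gene-activating editor. The members were all genes of the deposited table whose mouse Ensembl identifier maps to a symbol beginning with mt-, and 16 of 23008 mouse genes met this. They were the 13 mRNA genes, both ribosomal RNA genes and 1 transfer RNA gene, mt-Tp, of the 37 genes annotated on chromosome M. The other 21 transfer RNA genes were not analysed here.

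The mice were wild-type C57BL/6J. Both groups received the editor named GNDM in AAV9, an adeno-associated virus, through the tail vein, and the gastrocnemius, the large calf muscle, was taken 11 weeks later. One group, of 4 libraries, carried the m31 guide RNA, which targets Lama1, and the other, of 4 libraries, carried a non-targeting control guide RNA. The age at injection is given as 7 weeks in one label and as 7 to 12 weeks in another. No group without the virus was analysed here, so both groups carry the vector and the editor. Whether each library came from a separate animal is not stated, and the p-values cover only the spread among these 8 libraries, which may be technical in part.

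The mitochondrial genome is a small double-stranded circle that each muscle cell holds in many copies. A dedicated polymerase, Polrmt, transcribes both strands into long precursors, and the transfer RNAs lying between the other genes mark where these precursors are cut into single RNAs. The mRNAs encode core subunits of respiratory complexes I, III and IV and of ATP synthase, and all other subunits come from nuclear genes, so both genomes have to supply parts of one machine.

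The genes lie so close together that some share bases, which matters for reading their counts. In GRCm38 coordinates mt-Atp8 and mt-Atp6, the ATP synthase subunits, share 43 bases on one strand (chrM:7927-7969), and the complex I genes mt-Nd4l and mt-Nd4 share 7 bases (chrM:10167-10173). mt-Nd5 and mt-Nd6, 2 further complex I genes, are transcribed from opposite strands and share 14 bases (chrM:13552-13565). The lines give the last 20 bases before each shared stretch, plus strand, from the GENCODE M21 transcripts, with the shared bases in capitals.
mt-Atp8/mt-Atp6: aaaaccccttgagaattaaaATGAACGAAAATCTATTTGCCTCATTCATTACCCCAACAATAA
mt-Nd4l/mt-Nd4: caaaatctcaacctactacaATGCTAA
mt-Nd5/mt-Nd6: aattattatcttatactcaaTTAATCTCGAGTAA

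Of the 16 members, 14 lie on the plus strand, and mt-Nd6 and mt-Tp lie on the minus strand. mt-Co3, mt-Nd4 and mt-Cytb end 1 base after their last full codon, and polyadenylation is known to complete such stop codons. Their last 21 bases are shown beside those of mt-Nd5, whose stop codon is encoded, with the bases after the last sense codon in capitals.
mt-Co3 (chrM:9370-9390): ccatttattgatgaggatctT
mt-Nd4 (chrM:11524-11544): taattacaggcctgacaataT
mt-Cytb (chrM:15268-15288): aaatactaaaattatatccaT
mt-Nd5 (chrM:13545-13565): tactcaattaatctcgagTAA

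mt-Tp is the transfer RNA for proline, and its sequence (chrM:15356-15422, minus strand) is given with the anticodon in capitals.
mt-Tp: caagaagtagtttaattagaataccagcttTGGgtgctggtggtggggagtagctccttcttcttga

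Libraries held 25157486 to 39210248 reads in genes. Lama1, the guide's target and the chain of laminin that defines laminin-111, had 209, 295, 273 and 86.5 normalised reads in m31 libraries, against 4.18, 0, 2.25 and 0 in control libraries. The groups did not overlap, and the log2 difference was 6.60 ± 0.58 (SE; limma adjusted p = 0.00372, over 15960 genes). None of the 8 defining myofibre markers was at 0 in all libraries, and their sums were the highest of the 12 marker lists. m31 replicate 4 stood apart, with a summed fibroblast marker value of 174649 against at most 57028 in the other 7 libraries and the lowest sum of slow-fibre markers, 19291. In bulk muscle, fewer cells of a type and less RNA per cell cannot be told apart.

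The mitochondrial genes took a similar share of gene reads in both groups. Their 16 genes held 12.95%, 12.7%, 15.03% and 12.1% of gene reads in m31 libraries, against 13.1%, 11.9%, 13.03% and 14.01% in control libraries. The means were 13.2 ± 1.28% in m31 and 13.02 ± 0.854% in control libraries (SD, n = 4 each), the groups overlapped, and both the highest and the second lowest share belonged to m31 libraries. The Wilson 95% interval of a single share was at most 0.0271 percentage points wide, so counting error was far below the spread between libraries. The sum of normalised reads was 4150436 ± 483887 in m31 and 4200855 ± 384764 in control libraries (SD, n = 4 each). With the 10 most abundant nuclear genes taken out of the base, the share was 16.7 ± 1.44% in m31 and 16.6 ± 1.04% in control libraries.

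Of the 16 members, 7 have near-identical nuclear copies in the table, and these hold large read numbers. The nuclear genome holds old insertions of mitochondrial DNA, and the mouse has one on chromosome 1 that is nearly identical to the present mitochondrial sequence. The members were aligned to all nuclear GENCODE M21 transcripts, and 29 nuclear genes held a stretch of at least 100 aligned bases, 18 of them in the deposited table. In 7 of the 18 the stretch was at least 99% identical. All 7 were annotated as unprocessed pseudogenes within 4663 bases on the minus strand of chromosome 1 (chr1:24611535-24616197), and 5 of them held no differing base over the aligned stretch. The opening of mt-Co2, encoding subunit 2 of cytochrome c oxidase, shows what a read from either locus would look like, with both written along their own gene's strand.
mt-Co2 (chrM:7013-7072, plus): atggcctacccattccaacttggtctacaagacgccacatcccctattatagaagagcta
Gm28661 (chr1:24615506-24615565, minus): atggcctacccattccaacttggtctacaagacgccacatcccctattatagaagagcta

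The other 2 near-identical copies differed from their member at 1 base each. Positions are counted from 1 at the 5′ end of the mitochondrial gene. Gm29216 carried A1066T relative to mt-Co1, and Gm28438 carried T3C relative to mt-Nd3. The lines give the bases around each, with the differing base in capitals.
mt-Co1 (chrM:6390-6408, plus): ggaAttgttttatccaact
Gm29216 (chr1:24616170-24616188, minus): ggaTttgttttatccaact
mt-Nd3 (chrM:9459-9476, plus): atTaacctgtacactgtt
Gm28438 (chr1:24613102-24613119, minus): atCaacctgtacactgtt

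These copies held almost the same read numbers as the members they match. Gm28661 averaged 394519 normalised reads over the 8 libraries and mt-Co2 averaged 396015, and the copy held 99.4 to 99.7 reads per 100 of mt-Co2 in every library. Gm28437, the copy of mt-Co3, held 101.5 to 102.05 reads per 100 member reads. Gm10222, the copy of mt-Nd4l, held 98.6 to 99.1 and Gm28438, the copy of mt-Nd3, held 95.3 to 96.3. Gm29216 covers 31.3% of the bases of mt-Co1 and held 24.2 to 27.0 reads per 100 of it. Gm28439 covers 63.6% of mt-Nd4 and held 47.9 to 50.6 per 100. Gm10925, the copy of mt-Atp6, was the exception, with 167 to 182 reads per 100 of a member it covers nearly whole. mt-Atp6 overlaps mt-Atp8 by the 43 bases shown above and mt-Co3 by 1 base. mt-Atp8 is among the 9 members with no near-identical copy in the table. The bearing of these overlaps on the ratio was not tested. Only annotated transcripts were searched, so a copy of mt-Atp8 lying outside them on chromosome 1 would have been missed.

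**Figure D1:**
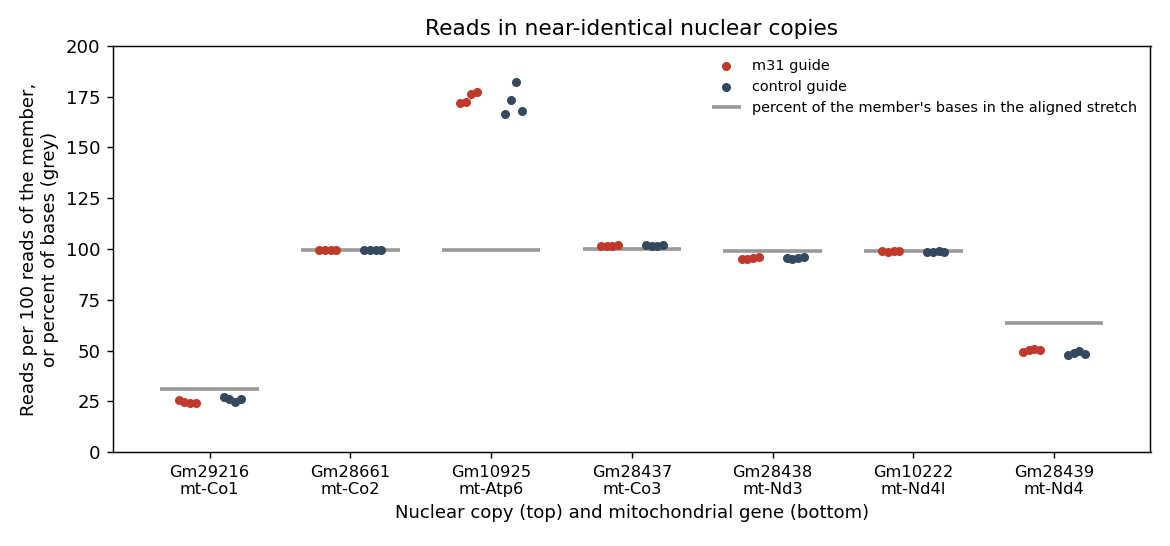
Reads of each near-identical nuclear copy per 100 reads of its mitochondrial gene, one point per library, with m31 libraries left of control libraries and a grey line at the percent of the mitochondrial gene's bases in the aligned stretch. 4 copies sit near 100 in all 8 libraries, Gm10925 sits between 167 and 182, and the 2 partial copies sit below their grey lines.

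The less similar copies held few reads. The other 11 nuclear copies in the table were 87.0 to 97.6% identical over the aligned stretch and held 0 to 3.78 reads per 100 member reads. The highest, Gm13341, is 95.9% identical to mt-Co2 and averaged 13890 normalised reads. Whether reads that fit both loci were split between them, counted at both or assigned in some other way is not given in the sources used here, so the reads of the chromosome 1 copies cannot be told apart from those of the mitochondrial genes.

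With the chromosome 1 copies counted as mitochondrial, the share of gene reads was larger by almost the same amount in both groups. The copies alone held 5.77 ± 0.503% of gene reads in m31 and 5.85 ± 0.438% in control libraries. Members and copies together held 18.97 ± 1.78% in m31 and 18.9 ± 1.27% in control libraries (SD, n = 4 each), with overlapping groups. Reads counted at both loci, if any, would enter this sum more than once. Per 100 mitochondrial reads the copies held 43.7 ± 0.607 in m31 and 44.9 ± 1.21 in control libraries.

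**Figure D2:**
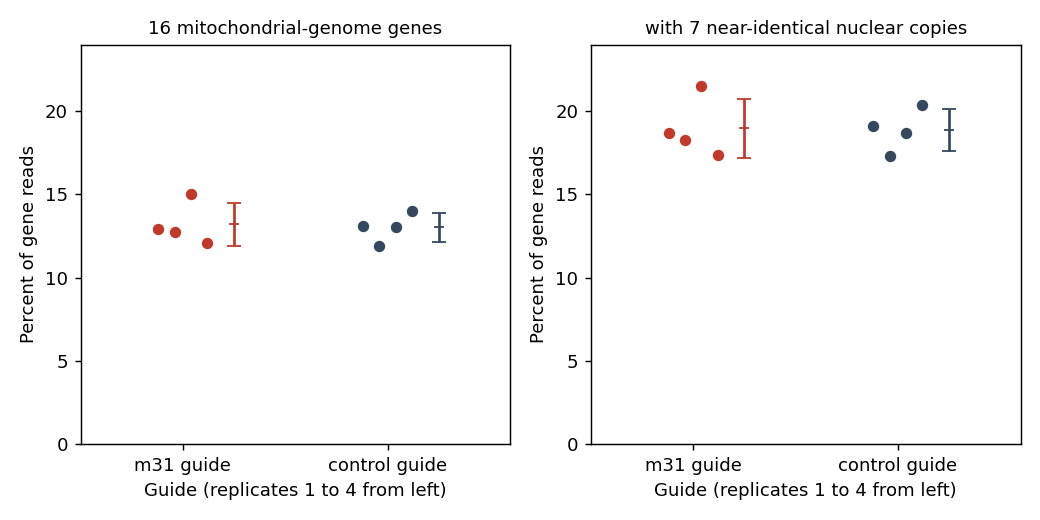
Percent of gene reads in the 16 mitochondrial genes (left) and in these genes plus their 7 near-identical nuclear copies (right), one point per library with the group mean and SD beside it. The groups overlap in both panels, at 12.1 to 15.03% in m31 and 11.9 to 14.01% in control libraries on the left.

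Levels per length spanned a wide range among RNAs cut from shared precursors. mt-Co1, the catalytic core of complex IV, had the highest normalised reads per kilobase as deposited, 734102 over the 8 libraries. mt-Co2 followed at 578969 and mt-Co3 at 567048, 78.9% and 77.2% of mt-Co1. mt-Nd1, at 406517, and mt-Atp6, at 387619, came next and overlapped each other between libraries. mt-Cytb, the complex III subunit, had 338751. mt-Nd4, at 263753, and mt-Nd2, at 252571, lay close together. mt-Nd4l, at 155138, and mt-Nd5, at 155114, were level with each other, above mt-Nd3 at 108285 and mt-Nd6 at 85713. The lowest values belonged to the ribosomal RNAs, to mt-Atp8 and to mt-Tp. mt-Rnr2 had 51957, mt-Atp8 51947, mt-Tp 38459 and mt-Rnr1 29506 normalised reads per kilobase. mt-Tp is only 67 bases long and mt-Atp8 204, of which 43 are shared with mt-Atp6. The bearing of length and overlap on these values was not tested. Within single libraries mt-Co1 exceeded mt-Co2 and mt-Co3 exceeded mt-Nd1 in 8 of 8. mt-Co2 exceeded mt-Co3 in 5 libraries, mt-Nd4l exceeded mt-Nd5 in 4 and mt-Rnr2 exceeded mt-Atp8 in 2, so the order within these pairs did not hold beyond the spread between libraries. The ribosomal RNAs, which are the abundant mitochondrial transcripts in most tissues, therefore stood at 4.02% and 7.08% of the mt-Co1 value for mt-Rnr1 and mt-Rnr2. Whether rRNA was removed or polyadenylated RNA selected is not given in the sources used here.

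**Figure D3:**
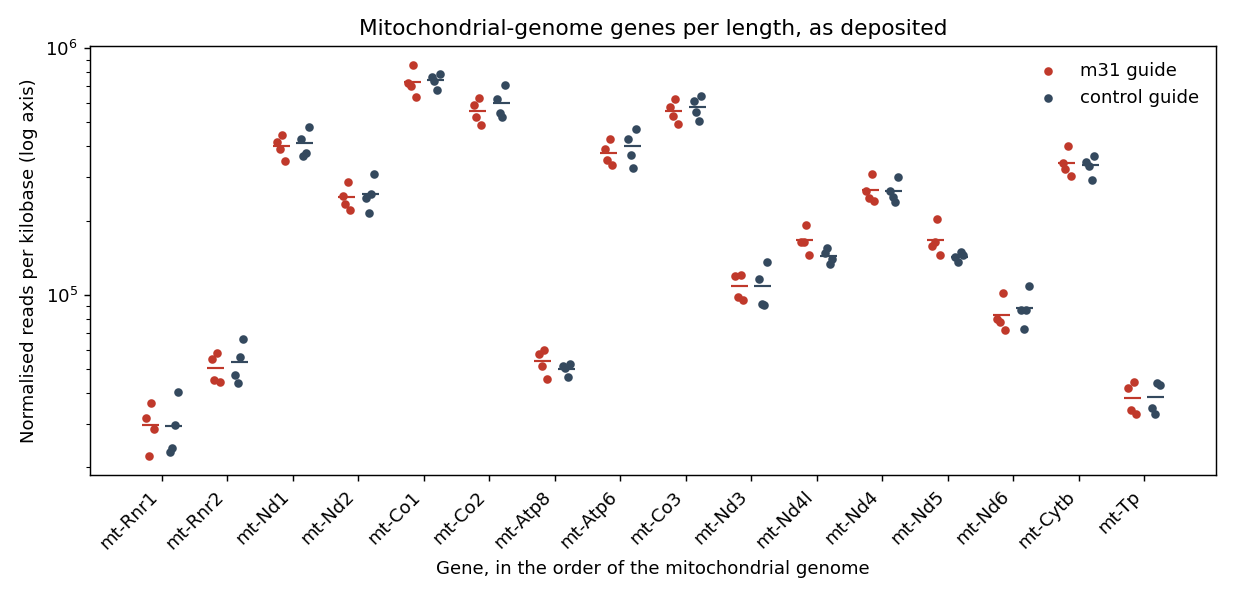
Normalised reads per kilobase of each mitochondrial gene on a log axis, one point per library with the group mean as a line, m31 left of control. Genes run along the genome from mt-Rnr1 to mt-Tp, mt-Co1 is the highest, and the groups overlap for every gene.

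The order at the top and in the middle depended on where the copies' reads belong. If reads that fit both loci were counted at both, adding a copy counts the same reads again. The order with copies added is then not a measured one. With each copy added to its member, mt-Co2 stood first with 1155752 normalised reads per kilobase, then mt-Co3 with 1143952, mt-Atp6 with 1058395 and mt-Co1 after these with 919998. The 9 members without a near-identical copy in the table kept their values, and mt-Nd1, next in the order, stayed at 406517. In the middle, mt-Nd4 rose to 393810, above mt-Cytb at 338751. mt-Nd4l rose to 308474, above mt-Nd2 at 252571 and mt-Nd5 at 155114. mt-Nd3 rose to 211849, also above mt-Nd5. mt-Atp8 and mt-Atp6 are known to share 1 mature mRNA, but their reads per kilobase differed, as deposited and with the copies added. As deposited, mt-Atp8 held 14.3 ± 0.541 per 100 of mt-Atp6 per kilobase in m31 and 12.7 ± 1.41 in control libraries. With both genes on 1 mRNA, this ratio cannot be read as a difference in RNA level, and its cause was not tested. mt-Nd4l and mt-Nd4, the other pair that shares 1 mRNA, were closer as deposited, at 62.8 ± 2.52 per 100 in m31 and 55.3 ± 6.53 in control libraries. In both pairs the groups overlapped.

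Within the set, the classes of RNA held similar shares of the reads in both groups. Complex IV mRNAs held 46.7 ± 0.273% of mitochondrial reads in m31 and 47.9 ± 1.10% in control libraries, and complex I mRNAs held 34.7 ± 0.241% in m31 and 33.6 ± 1.21% in control libraries. The complex III mRNA mt-Cytb held 9.45 ± 0.123% in m31 and 9.12 ± 0.391% in control libraries, and the ATP synthase mRNAs held 6.43 ± 0.131% in m31 and 6.69 ± 0.485% in control libraries. The ribosomal RNAs held 2.61 ± 0.188% in m31 and 2.67 ± 0.439% in control libraries. mt-Tp held 0.0617 ± 0.00371% in m31 and 0.0619 ± 0.0104% in control libraries (SD, n = 4 each). For every class the groups overlapped, and for every class the 4 control libraries had the larger SD. The minus-strand genes mt-Nd6 and mt-Tp together held 1.09 ± 0.0475% in m31 and 1.15 ± 0.122% in control libraries.

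No member passed the test between the guides. In the limma fit 0 of 16 members were called at an adjusted p under 0.05, 0 had an unadjusted p under 0.05, and on the scale of normalised reads the groups overlapped for all 16. Over all 15960 genes tested, 0.00627% were called (Lama1 alone). Groups did not overlap in 3.85% of them, with m31 above control in 1.84% and below in 2.02%. edgeR's quasi-likelihood test and DESeq2 on the recovered reads also called 0 of 16, beside 0.00618% and 0.104% of all genes, and DESeq2 gave 1 member an unadjusted p under 0.05. Quantile normalisation gave 2 members an unadjusted p under 0.05 and scaling to the nuclear total 1, as did leaving out m31 replicate 4 (1 member) and leaving it out with control replicate 3 (2 members). Estimates were positive for 7 members and negative for 9, with a median log2 difference of -0.03 beside 0.01 over all genes tested. The estimates ran from 0.927-fold to 1.16-fold, and the 95% intervals from -0.44 to 0.52 on the log2 scale.

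The largest estimates belonged to mt-Nd5 and mt-Nd4l, 2 of the complex I mRNAs. Those of the other complex I mRNAs ran from -0.10 for mt-Nd6 to 0.01 for mt-Nd3 and mt-Nd4 on the log2 scale. mt-Nd5 had 286784, 298382, 370970 and 265490 normalised reads in m31 libraries, against 259259, 247669, 271566 and 263307 in control libraries. m31 replicate 3 was the highest, and m31 replicate 4 lay among the control libraries. The means were 305406 ± 45782 in m31 and 260450 ± 9942 in control libraries, and the log2 difference was 0.22 ± 0.14 (SE; interval -0.08 to 0.52; limma adjusted p = 0.808).

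mt-Nd4l had 48588, 48739, 57232 and 43030 normalised reads in m31 libraries, against 43742, 46138, 39759 and 41380 in control libraries. The lowest m31 library, replicate 4, lay below 2 control libraries. The means were 49397 ± 5860 in m31 and 42755 ± 2786 in control libraries, with a log2 difference of 0.20 ± 0.11 (SE; interval -0.03 to 0.44; limma adjusted p = 0.769).

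As a share of all gene reads, mt-Nd4l was the 1 member whose groups did not overlap. It held 0.150%, 0.157%, 0.179% and 0.142% of gene reads in m31 libraries, against 0.133%, 0.139%, 0.135% and 0.123% in control libraries. Every m31 library lay above every control library, and the means were 0.157 ± 0.0161% in m31 and 0.133 ± 0.00652% in control libraries (SD, n = 4 each). On this scale 3.78% of all genes tested had groups that did not overlap, 2.69% with m31 above control. mt-Nd5 held 0.885%, 0.962%, 1.16% and 0.877% of gene reads in m31 libraries, against 0.790%, 0.744%, 0.923% and 0.785% in control libraries, with overlap through control replicate 3.

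mt-Co1, the most abundant member, had 1114064, 1083212, 1315440 and 977927 normalised reads in m31 libraries, against 1179543, 1142378, 1049911 and 1211026 in control libraries. m31 libraries held both the highest and the lowest value. The log2 difference was -0.04 ± 0.17 (SE; limma adjusted p = 0.978). mt-Co2 had the lowest estimate, -0.11, with 380573 ± 41638 normalised reads in m31 and 411456 ± 56470 in control libraries.

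For the remaining members the groups overlapped as well. The log2 differences were -0.10 for mt-Nd6, -0.08 for mt-Atp6, -0.07 for mt-Rnr2, -0.06 for mt-Co3, -0.05 for mt-Nd2, -0.04 for mt-Nd1 and -0.01 for mt-Tp. They were 0.09 for mt-Atp8, 0.03 for mt-Rnr1 and mt-Cytb and 0.01 for mt-Nd3 and mt-Nd4. All 16 members had their highest value in one of 2 libraries, 7 in m31 replicate 3 and 9 in control replicate 4. Their lowest values fell in m31 replicate 4 for 6 members, in control replicate 3 for 5, in control replicate 2 for 4 and in m31 replicate 2 for 1. The highest library exceeded the lowest by 1.30-fold for mt-Co3 and by up to 1.81-fold for mt-Rnr1.

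**Figure D4:**
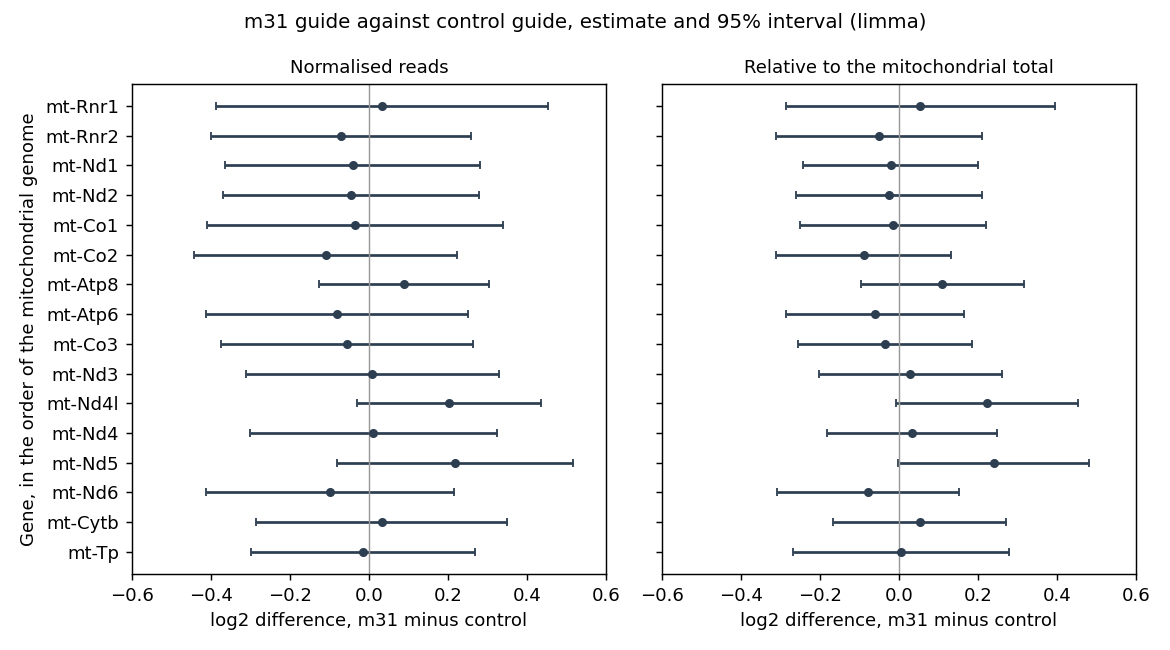
log2 difference of each mitochondrial gene, m31 minus control, with its 95% interval from limma, for normalised reads (left) and after removal of each library's deviation in summed mitochondrial reads (right). All 16 intervals include 0 in both panels, with mt-Nd5 and mt-Nd4l farthest to the right.

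The fit relative to the mitochondrial total also gave no call among the members. After each library's deviation in summed mitochondrial reads was removed, mt-Nd5 had a log2 difference of 0.24 ± 0.11 (SE; interval -0.0018 to 0.48) and mt-Nd4l of 0.22 ± 0.11 (SE; interval -0.0070 to 0.45). Neither was called (limma adjusted p = 0.999973 for both), and 0 of 16 members were called or without overlap, beside 0.00627% and 1.95% of all genes. The deviation was subtracted from nuclear genes too, so this adjusted p and the 1.95% rest on their shifted values. With it 580 genes had an unadjusted limma p under 0.05, against 1083 in the main fit.

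As shares of mitochondrial reads, mt-Nd5 held 6.83%, 7.55%, 7.74% and 7.26% in m31 libraries, against 6.03%, 6.24%, 7.08% and 5.61% in control libraries. Only control replicate 3 reached into the m31 range. mt-Nd4l held 1.16%, 1.23%, 1.19% and 1.18% in m31 libraries, against 1.02%, 1.16%, 1.04% and 0.881% in control libraries, and only control replicate 2 reached it, at 1.163% against 1.157% in m31 replicate 1. With the chromosome 1 copies added, a step chosen after seeing the data, mt-Nd4l held 1.65 ± 0.0487% in m31 and 1.41 ± 0.161% in control libraries. Its groups did not overlap on this scale, while those of all other members did. The share of all genes without overlap on this scale was not computed. Reads counted at both loci, if any, would enter these shares more than once.

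Ratios between members were compared in the same way, without a test. Of 120 pairs of members, 8 (6.67%) had ratios whose groups did not overlap. The 3.85% given above for single genes is a different measure. The share over ratios of other genes was not computed, so no background stands beside the 6.67%. The pairs share genes and are not independent: 4 hold mt-Nd4l and 3 hold mt-Atp8. Among 4 pairs of neighbouring genes, only that of mt-Nd6 and mt-Nd5, on opposite strands, had groups without overlap. mt-Nd6 had 14.5, 13.4, 14.2 and 14.1 reads per 100 mt-Nd5 reads in m31 libraries, against 17.3, 15.3, 16.6 and 21.4 in control libraries. Every m31 library lay below every control library, and the means were 14.1 ± 0.442 in m31 and 17.6 ± 2.65 in control libraries (SD, n = 4 each). Without control replicate 4, the highest, the control mean was 16.4. Leaving out a library cannot make separated groups overlap, so it is no check of the separation. Neither gene has a near-identical nuclear copy in the table, but the strand setting of the counting is not given in the sources used here, so reads of the 2 strands cannot be told apart.

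mt-Nd4l had 13.5 ± 0.542 reads per 100 mt-Nd4 reads in m31 and 11.9 ± 1.41 in control libraries. mt-Atp8 had 4.28 ± 0.162 per 100 mt-Atp6 reads in m31 and 3.82 ± 0.422 in control libraries. The neighbouring ribosomal RNA genes gave 35.4 ± 4.07 mt-Rnr1 reads per 100 mt-Rnr2 reads in m31 and 32.8 ± 2.96 in control libraries. In these 3 pairs of neighbours the groups overlapped.

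The nuclear genes that make and run mitochondrial RNA gave no call either. Of 173 listed genes of mitochondrial DNA maintenance, transcription, RNA processing and translation, 170 were tested, and 0 were called in either direction by limma. Their estimates were positive for 63 and negative for 107, with a median log2 difference of -0.02 beside 0.01 over all genes, and 2.94% had groups that did not overlap, beside 3.85% of all genes. In the same limma fit 5 of the 170 (2.94%) had an unadjusted p under 0.05, beside 6.79% of all genes. Without m31 replicate 4 the balance turned, to 90 positive and 80 negative estimates with a median of 0.01, and without control replicate 3 it was 43 positive and 127 negative with a median of -0.08.

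Polrmt, the mitochondrial RNA polymerase, had 1076 ± 47.9 normalised reads in m31 and 948 ± 205 in control libraries, a log2 difference of 0.21 (limma adjusted p = 0.824). Tfam, which packages mitochondrial DNA and opens its promoters, had 1051 ± 72.8 in m31 and 1067 ± 89.3 in control libraries, a log2 difference of -0.02. The initiation factor Tfb2m had a log2 difference of -0.11 and the elongation factor Tefm of 0.10. Mterf3 and Mterf4, of the mitochondrial termination factor family, had differences of -0.18 and -0.22. In all of these genes the groups overlapped.

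Among genes of DNA maintenance, the polymerase Polg differed by -0.02 and the helicase Twnk by -0.10 on the log2 scale. Tk2, the mitochondrial thymidine kinase, had 169 ± 10.3 normalised reads in m31 and 136 ± 20.5 in control libraries. Its log2 difference was 0.32 (limma adjusted p = 0.720), and its groups did not overlap. That held for 1 of 14 genes of the maintenance list (7.14%), beside 3.85% of all genes. The nuclease genes Exog and Mgme1 differed by 0.29 and -0.14 with overlapping groups.

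Lrpprc, which stabilises mitochondrial mRNAs, had 3225 ± 450 normalised reads in m31 and 3425 ± 192 in control libraries, a log2 difference of -0.10. Slirp, its binding partner, averaged 1.25 ± 1.37 in m31 and 1.90 ± 1.53 in control libraries and was left out by the minimum of 10. Mrm1, which methylates the large mitochondrial ribosomal RNA, had 384 ± 75.0 in m31 and 274 ± 24.7 in control libraries, the widest difference of the RNA-processing list at 0.47 (limma adjusted p = 0.647). Trmt10c, a subunit of the enzyme that cuts transfer RNAs at their 5′ end, differed by -0.19 and the pseudouridine synthase Pus1 by 0.19, with overlapping groups.

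In the mitochondrial ribosome list 24 of 77 estimates were positive and 53 negative. Without m31 replicate 4 the balance turned, to 40 positive and 37 negative, and without control replicate 3 it was 8 positive and 69 negative. The small-subunit protein Mrps18c had 84.5 ± 6.03 normalised reads in m31 and 115 ± 17.7 in control libraries (log2 difference -0.43; limma adjusted p = 0.697). Mrps2 lay the other way, with 539 ± 97.1 in m31 and 430 ± 49.5 in control libraries (log2 difference 0.32; limma adjusted p = 0.723). Both had groups that did not overlap. Of the 77 genes, 1 lay above and 2 lay below every control library (3.90%), close to the 3.85% of all genes without overlap. Of the aminoacyl-tRNA synthetases, Nars2 differed by -0.32 without overlap, and Lars2 and Aars2 by 0.28 and 0.16 with overlap, none of them called. In the list of synthetases and translation factors 1 of 34 genes (2.94%) had groups without overlap.

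The nuclear partners of the mitochondrial subunits had mostly negative estimates, all of them uncalled. Of 80 nuclear subunits of complexes I to IV and ATP synthase, 8 had positive and 72 negative estimates, with a median log2 difference of -0.08 beside 0.01 over all genes and -0.03 over the 16 members. All 17 nuclear ATP synthase subunits and 31 of 36 nuclear complex I subunits were negative with all libraries, but 11 of 17 and 22 of 36 without m31 replicate 4. Groups failed to overlap in 1 of the 80 (1.25%), beside 3.85% of all genes. That gene, Ndufb11 of complex I, had 4929 ± 280 normalised reads in m31 and 5806 ± 623 in control libraries (log2 difference -0.23; limma adjusted p = 0.715). Without m31 replicate 4 and control replicate 3 together, 78 of 80 were negative. Without m31 replicate 4 alone 51 were, with a median of -0.03, and without control replicate 3 alone 79 were, with a median of -0.18. Without control replicate 1 alone 53 were, with a median of -0.04, and without control replicate 2 alone 55 were, with a median of -0.06.

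Markers of muscle fibres had estimates of the same sign. In all, 0 of 8 myofibre and 0 of 8 slow-fibre markers had positive estimates, with summed myofibre values of 4183809 to 4816620 in m31 and 3903084 to 5364256 in control libraries. All 5 fibroblast markers had positive estimates, with sums of 40617 to 174649 in m31 and 30617 to 55188 in control libraries. All tested markers of tendon, macrophages, endothelium and adipocytes were positive too, as was the 1 tested T cell marker. All Schwann cell and erythroid markers were negative, and those of pericytes with smooth muscle and of satellite cells were mixed. The part of any of these cell types in the subunit estimates was not tested.

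Library by library, mitochondrial mRNAs and nuclear subunits lay close in some libraries and apart in others. The mean centred log2 level of the 13 mitochondrial mRNAs was 0.04, -0.06, 0.22 and -0.18 in m31 libraries, against 0.04, -0.10, -0.13 and 0.17 in control libraries. That of the 80 nuclear subunits was 0.03, -0.08, 0.07 and -0.21 in m31 libraries, against 0.19, 0.13, -0.24 and 0.10 in control libraries. The 2 sets lay within 0.03 of each other in 3 m31 libraries, and apart by over 0.1 in m31 replicate 3 and in control replicates 1, 2 and 3.

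**Figure D5:**
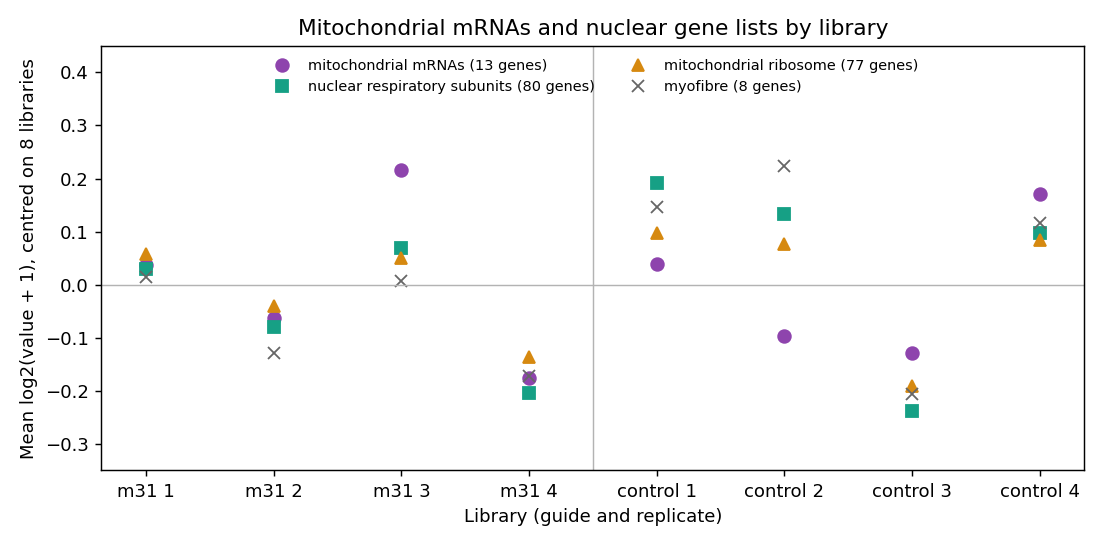
Mean log2(value + 1), centred on the 8 libraries, of the mitochondrial mRNAs, the nuclear respiratory subunits, the mitochondrial ribosomal proteins and the myofibre markers in each library, m31 libraries left and control libraries right. In control replicate 2 the mitochondrial mRNAs lie at -0.10 and the nuclear subunits at 0.13.

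Among regulators of mitochondrial biogenesis, 0 of 15 were called by limma, beside 0.00627% of all genes. In the same fit 2 of 15 (13.3%) had an unadjusted p under 0.05, beside 6.79% of all genes. Groups did not overlap in 1 of 15 (6.67%), beside 3.85% of all genes. Ppargc1a, the coactivator known for driving this programme in muscle, had 1633 ± 369 normalised reads in m31 and 1785 ± 1211 in control libraries, a log2 difference of 0.10 with a 95% interval from -0.79 to 0.99. Esrrg, a nuclear receptor of oxidative muscle, had 1091 ± 365 in m31 and 727 ± 190 in control libraries (log2 difference 0.56; limma adjusted p = 0.731). Ppard, another nuclear receptor, had 1173 ± 44.5 in m31 and 1011 ± 106 in control libraries (log2 difference 0.22; limma adjusted p = 0.720), and its groups did not overlap, unlike those of Esrrg and Ppargc1a.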

How the data were processed

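Per the labels' protocols, gastrocnemius total RNA came from an RNeasy kit and libraries from NEBNext Ultra RNA reagents. The authors deposited a normalised read signal per gene, that is reads scaled by a single factor in each library. STAR, DESeq2 and the human build GRCh38.p12 are named in the submitters' processing notes, although the gene identifiers are of mouse. The counting program, its strand setting and its handling of reads that fit several places remain unknown (not given in the sources used here). Of 11 value columns, 8 match the labels and 3 were not used. The 5 construct entries (0.023 to 0.142% of reads) stayed out of totals and tests.

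Whole reads were recovered for 100% of values within 0.01 of a read. Identifiers were matched to GENCODE M21 (GRCm38), which gave 22963 of 23008 genes a symbol. limma 3.58.1 (R 4.3.3; intensity trend, group only, 8 libraries) was run on log2(value + 1) of the 15960 genes averaging 10 or more, with Benjamini-Hochberg adjustment over all of them and a threshold of 0.05; this replaces the count test foreseen for raw counts. For the relative fit each library's deviation in log2 summed mitochondrial value was first subtracted from every gene. Lama1 was also compared by an exact two-sided permutation test over 70 arrangements (p = 0.0286, the smallest they allow). edgeR 4.0.16 and DESeq2 1.42.0 were run on the recovered reads. Shares, ratios and sums over members were given no test.

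Nuclear copies were found by blastn of member transcripts against nuclear GENCODE M21 transcripts (at least 80% identity and 100 aligned bases); copies of at least 99% identity were called near-identical. The limma fit was tested on simulated data. Replicates of a group differed beyond sampling noise (chi-square per degree of freedom 14.3 to 57.9). Replicate numbers did not pair the libraries, with correlations of deviations of 0.05, -0.05, -0.13 and -0.18.

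The members and gene lists were chosen with earlier results of these data known. Members were named without exception, then up to 3 genes per nuclear list with the smallest unadjusted p and 9 nuclear genes by name, of which some are left out of the text. Alternatives were each library left out, a replicate block, dropping the minimum or raising it to 50, pseudocounts of 0.5 and 5, quantile normalisation, recentring on medians, scaling to the nuclear total, library weights, the protein-coding total as base, DESeq2 and edgeR. Added after seeing the data were the removal of m31 replicate 4 together with control replicate 3, and the addition of the near-identical copies to their members.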

Additional observations from a re-analysis of the deposited data

Results flagged for a closer look

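mt-Rnr1, the small ribosomal RNA, had one library far from the others of its group. It held 0.538% of mitochondrial reads in m31 replicate 2, while the other 3 m31 libraries lay at 0.718% or above. Control libraries spanned 0.514 to 0.820%. The gap to the next m31 library was 0.864 of that group's range. In all, 88 sets of 4 values were examined, and chance marks about 1 in 20 of such sets.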

How the results depend on the processing

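In every setting run, 0 of the 16 members were called. Over all genes tested, limma called 1 gene as reported, DESeq2 24 and the remaining settings with all 8 libraries 1 each. With libraries left out the count was 1 to 3, and in the fit relative to the mitochondrial total 1 to 5, the highest in both (3 and 5) without m31 replicate 4 and control replicate 3. The replicate block called 1 gene and 0 members and gave 867 genes an unadjusted p under 0.05, against 1083 without it. No pair of equal numbers was positively correlated beyond 0.1, and the correlations are those given with the methods.

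Estimates near 0 changed sign with the setting, and the cause was not tested. Quantile normalisation gave log2 differences of 0.063 for mt-Rnr2, 0.0246 for mt-Nd1, 0.0424 for mt-Nd2, 0.046 for mt-Co3 and -0.0136 for mt-Nd4. Recentring on medians gave -0.0014 for mt-Rnr1, -0.0263 for mt-Nd3, -0.0234 for mt-Nd4 and -0.0029 for mt-Cytb. Library weights gave 0.0211 for mt-Rnr2, 0.0112 for mt-Nd2, -0.0202 for mt-Nd3 and 0.08 for mt-Tp. Scaling to the nuclear total gave 0.0048 for mt-Co1 and 0.0259 for mt-Tp. For mt-Nd3, edgeR gave -0.0038 and DESeq2 -0.001. The signs of mt-Co2, mt-Atp8, mt-Nd4l and mt-Nd5 held in every setting run. mt-Nd5 ran from 0.1217 to 0.303 and mt-Nd4l from 0.1299 to 0.267 with libraries left out.

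Leaving out libraries reversed 30 of 144 estimates, with ranges of -0.0711 to 0.1998 for mt-Rnr1, -0.1578 to 0.0397 for mt-Rnr2, -0.0954 to 0.0351 for mt-Nd1, -0.1273 to 0.0465 for mt-Nd2 and -0.1145 to 0.028 for mt-Co1. The ranges were -0.1736 to 0.0042 for mt-Atp6, -0.1166 to 0.0013 for mt-Co3, -0.0701 to 0.1223 for mt-Nd3, -0.0649 to 0.0774 for mt-Nd4, -0.2015 to 0.0043 for mt-Nd6, -0.0464 to 0.0873 for mt-Cytb and -0.0888 to 0.12 for mt-Tp. Relative to the mitochondrial total it reversed 17 of 144, with ranges of -0.0604 to 0.1647 for mt-Rnr1, -0.1161 to 0.0199 for mt-Rnr2, -0.0492 to 0.0001 for mt-Nd1, -0.0812 to 0.0188 for mt-Nd2, -0.0433 to 0.0099 for mt-Co1, -0.0172 to 0.0872 for mt-Nd3 and -0.0557 to 0.1236 for mt-Tp. Counting depth did not limit these genes, since the spread between libraries exceeded it. Adding the chromosome 1 copies left the estimates of mt-Nd5 and mt-Nd4l at 0.22 and 0.20, which it could hardly have moved. mt-Nd5 has no near-identical copy in the table, and that of mt-Nd4l held 98.6 to 99.1 reads per 100 member reads in every library.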
